A study of Mus musculus with 6 samples.

Results

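Messenger RNA of the EGF receptor family was followed in 3T3-F442A cells, a mouse preadipocyte line, with and without a CRISPR/Cas9 knockout of SWELL1. The family was taken as 10 genes, listed by symbol: the receptor genes Egfr, Erbb2 and Erbb3, the ligand genes Btc, Hbegf, Areg, Ereg, Tgfa and Nrg1, and the feedback inhibitor gene Errfi1. Each had a row to itself among the 31097 rows of the table of RNA sequencing values. The WT group held 3 libraries of the parental line with intact SWELL1, grown in RPMI with 10% FBS, and the SWELL1 KO group held 3 libraries of the knocked-out line in the same medium. The labels name biological replicates within each group but do not give the number of knockout clones, and the KO sample names alone carry the mark D3, whose meaning no source used here states. A difference between KO and WT therefore cannot be told apart from a difference between clones or from whatever that mark stands for, and p-values cover the spread between these libraries only. In bulk RNA, fewer cells of a type and less RNA per cell cannot be told apart either.

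The genes were chosen with the KO and WT values known. Egfr was selected on its KO minus WT difference, the most negative of 10515 tested rows on the tested scale, and its partners were added by name. The differences of the 10 genes are therefore given as a description, with their errors and no test. Values are read as FPKM, which counts fragments for each kilobase of a transcript and scales them to the mapped fragments of the library; the unit was inferred, because the authors used Cufflinks. Log2 differences are KO minus WT on log2(FPKM + 0.5), which understates the difference of genes at low values.

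EGF receptors are tyrosine kinases that dimerise when a ligand binds outside the cell and then signal through the Ras to ERK cascade, PI3 kinase and STAT proteins. ErbB2 has no known ligand and acts as a partner, ErbB3 has a weak kinase and signals in pairs, and ERRFI1 (also called MIG6) binds the kinase domain and shuts it off. The ligands are made as membrane proteins and cut loose by ADAM proteases. In fibroblast-like cells such as preadipocytes, EGF receptor signalling is best known for driving proliferation.

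The receptor genes moved apart. Egfr was at 186, 165 and 165 FPKM in WT, in the order of replicate numbers used throughout, against 1.42, 1.85 and 1.59 FPKM in KO. No KO library came near a WT library, and the mean was 106-fold lower in KO (172 ± 12.1 and 1.62 ± 0.22 FPKM, SD, n = 3; log2 difference -6.35, SE 0.09). By level, Egfr stood at positions 349, 404 and 406 of all rows in the WT libraries and at positions 9297, 8954 and 9181 in the KO libraries. The transcript was still read in KO: about 287, 508 and 309 fragments were estimated for the longest annotated Egfr transcript (10208 bases, 28 exons), against about 33890, 33450 and 36260 in WT. The antisense gene Egfros, annotated within Egfr on the other strand, was not analysed here.

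Erbb2, the partner receptor without a known ligand, stood at 6.24, 6.78 and 6.42 FPKM in WT, against 6.50, 6.75 and 6.53 FPKM in KO. The groups overlapped, and the log2 difference of 0.02 (SE 0.05) was smaller than its error. It reached 0.14 at most, when libraries were rescaled without the largest row. The Erbb2 groups then did not overlap, with KO above WT, while the median of all tested rows shifted by 0.11. The neighbouring Mien1, whose gene overlaps the end of Erbb2 on the other strand, had its own row. Erbb3, the receptor with a weak kinase, was at the edge of detection: 0.047, 0.034 and 0.047 FPKM in WT and 0.229, 0.132 and 0.217 FPKM in KO. These values correspond to about 15 fragments summed over the WT libraries and about 73 over the KO libraries, a ratio of 4.38 per unit of depth (95% exact interval 2.49 to 8.21, counting error only). All KO libraries were above all WT libraries, yet every value was under the 0.5 FPKM mean needed for the fit. Erbb4, the remaining receptor of the family, was listed at 0 in all 6 libraries.

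Egfr and Erbb2 lie on the same chromosome, with Egfr far lower in KO and Erbb2 overlapping between groups. Btc and Areg, described further on, lie in 1 cluster, with Btc far higher in KO and Areg slightly higher. The 250 bases before the RefSeq start of each (GRCm38.p6) are shown for these 4 genes, 5′ to 3′ on the gene's strand, with matches to 5 searched motifs in capitals.
Egfr promoter, chr11:16751953-16752202, plus strand: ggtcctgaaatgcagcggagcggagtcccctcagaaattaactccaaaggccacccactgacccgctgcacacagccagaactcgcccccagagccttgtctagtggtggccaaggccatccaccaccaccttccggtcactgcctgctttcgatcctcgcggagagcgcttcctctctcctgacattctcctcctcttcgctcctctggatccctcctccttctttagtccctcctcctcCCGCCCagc
Erbb2 promoter, chr11:98412234-98412483, plus strand: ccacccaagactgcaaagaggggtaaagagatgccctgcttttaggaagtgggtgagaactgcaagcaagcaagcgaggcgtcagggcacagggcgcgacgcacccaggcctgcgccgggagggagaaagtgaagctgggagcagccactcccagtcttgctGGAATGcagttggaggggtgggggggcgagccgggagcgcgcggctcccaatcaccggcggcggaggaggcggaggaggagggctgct
Btc promoter, chr5:91402995-91403244, minus strand: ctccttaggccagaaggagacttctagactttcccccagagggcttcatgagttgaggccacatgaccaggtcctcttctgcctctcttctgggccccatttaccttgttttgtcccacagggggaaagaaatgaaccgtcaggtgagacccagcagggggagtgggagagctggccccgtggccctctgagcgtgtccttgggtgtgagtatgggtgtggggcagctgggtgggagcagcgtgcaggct
Areg promoter, chr5:91139349-91139598, plus strand: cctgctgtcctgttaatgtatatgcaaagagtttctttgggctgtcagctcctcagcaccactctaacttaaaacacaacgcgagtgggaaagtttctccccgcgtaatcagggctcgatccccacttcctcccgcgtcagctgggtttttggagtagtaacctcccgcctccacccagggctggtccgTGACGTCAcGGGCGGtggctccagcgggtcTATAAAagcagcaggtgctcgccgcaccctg

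The motifs were the GC box GGGCGG, the TATA box TATAAA, the AP-1 site TGANTCA, the TEAD site GGAATG and the cAMP response element TGACGTCA, searched on both strands, with no overlap among the matches shown. Egfr held 1 GC box, read on the other strand, and no TATA box, in a window of 60.8% GC with 11 CpG pairs. Erbb2 held 1 TEAD motif, with 66.0% GC and 16 CpG pairs. Btc held none of the 5, with 59.6% GC and 4 CpG pairs. Areg held 1 GC box, 1 TATA box and 1 cAMP response element, with 57.2% GC and 15 CpG pairs. Of 32851 windows of this length in the RefSeq table, 32.7% held the GC box, 12.4% the TATA box, 6.75% the AP-1 site, 12.6% the TEAD site and 1.55% the cAMP response element. The median window had 52.4% GC and 6 CpG pairs. A match is a description of letters and says nothing of binding. The table held windows for 6 of the 10 genes.

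Errfi1, the feedback inhibitor that binds the receptor's kinase domain, kept close to its WT level. It stood at 81.6, 92.5 and 93.1 FPKM in WT, against 78.2, 84.6 and 79.3 FPKM in KO. The groups overlapped, with means of 89.1 ± 6.47 and 80.7 ± 3.42 FPKM and a log2 difference of -0.14 (SE 0.06), which turned to 0.10 under quantile normalization. Set against the receptor, Errfi1 read 0.44, 0.56 and 0.56 times the Egfr value in the WT libraries and 55.1, 45.8 and 49.8 times the Egfr value in the KO libraries. That ratio moved with Egfr, since its numerator differed little. An antisense transcript annotated across Errfi1, 1700045H11Rik, was listed at 0 in every library.

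**Figure D1:**
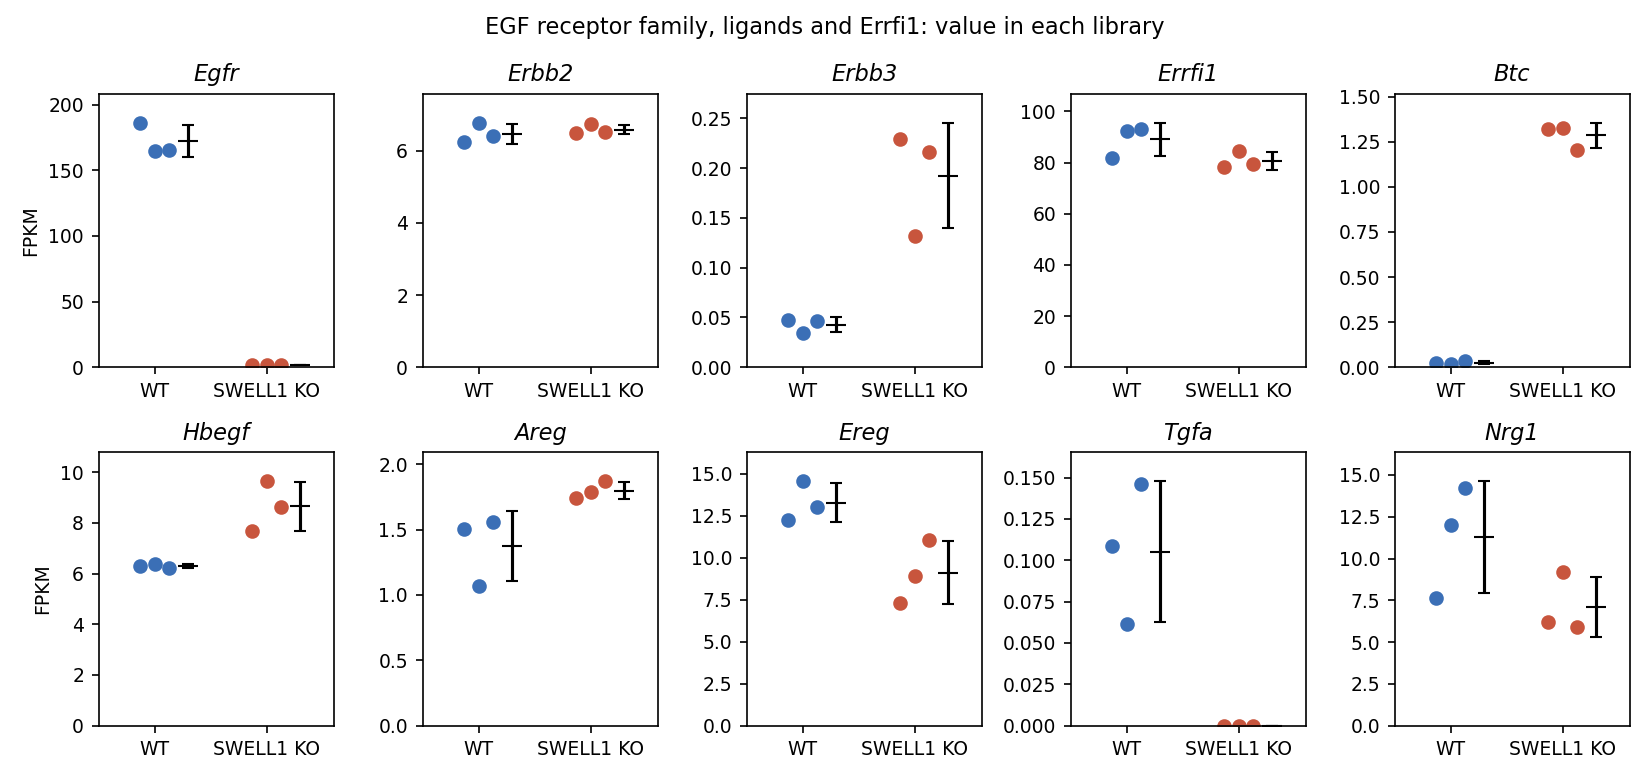
FPKM of each of the 10 genes in every library, with the WT libraries in blue, the SWELL1 KO libraries in red and a black bar for the mean ± SD of 3 libraries; each panel has its own axis from 0. Egfr is at 165 to 186 FPKM in WT and under 2 in KO, Btc goes the other way at far lower values, and Erbb2, Errfi1 and Nrg1 overlap between groups.

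Among the ligands, betacellulin stood furthest apart. Btc, which encodes a ligand of EGFR and ErbB4, was at 0.020, 0.018 and 0.034 FPKM in WT, against 1.32, 1.33 and 1.21 FPKM in KO. The WT values amount to about 6 fragments summed over 3 libraries and the KO values to about 333, a ratio of 49.9 per unit of depth (95% exact interval 22.7 to 137, counting error only). The log2 difference of 1.77 (SE 0.12) depended on the pseudocount, at 3.48 with 0.1 and 1.16 with 1. Btc passed the filter on low values through its KO libraries alone, with a mean in WT of 0.024 ± 0.008 FPKM.

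Hbegf encodes a heparin-binding ligand of EGFR and ErbB4. It read 6.31, 6.37 and 6.23 FPKM in WT and 7.68, 9.64 and 8.64 FPKM in KO, without overlap, at a log2 difference of 0.42 (SE 0.09). The coefficient of variation was 1.10% over the WT libraries and 11.3% over the KO libraries. Areg, for amphiregulin, a ligand of EGFR, read 1.504, 1.066 and 1.555 FPKM in WT and 1.74, 1.79 and 1.87 in KO. The groups did not overlap, but WT replicate 2 set much of the log2 difference of 0.30 (SE 0.13), which was 0.18 without it. Areg rested on few fragments, about 22 to 51 in each library.

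Ereg, for epiregulin, a ligand of EGFR and ErbB4, was the most abundant of the EGFR ligand transcripts in all 3 WT libraries. It was lower in KO without overlap, at 12.2, 14.5 and 13.0 FPKM in WT and 7.32, 8.93 and 11.04 FPKM in KO (log2 difference -0.54, SE 0.15). Its KO libraries were spread (coefficient of variation 20.5%), with replicate 3 the nearest to WT. Tgfa, for transforming growth factor alpha, a ligand of EGFR, was at 0.109, 0.061 and 0.146 FPKM in WT and was listed at 0 in all 3 KO libraries. The WT values stand for about 5 to 14 fragments in a library, and 3 fragments in a KO library would have read 0.025 to 0.036 FPKM. A 0 in this table can be a failed estimate, so no fold is given. Nrg1, for neuregulin, which binds ErbB3 and ErbB4 rather than EGFR, spread widely in both groups: 7.62, 12.0 and 14.2 FPKM in WT and 6.20, 9.17 and 5.89 FPKM in KO. The groups overlapped, and the log2 difference of -0.62 (SE 0.27) lay between -0.86 and -0.43 when 1 library was left out.

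Of the 10 genes, 4 were higher and 3 lower in KO without overlap between groups. Erbb3 and Tgfa were below the filter, so 8 were tested. Of those 8, 3 were higher and 2 lower without overlap, beside 31.5% and 40.3% of all tested rows (71.8% in either direction). At an adjusted p under 0.05 in limma, 2 were higher and 2 lower, beside 28.5% and 36.7% of all tested rows (65.2% in either direction). The balance over all rows moved with the scaling: 32.6% were higher and 32.1% lower under quantile normalization, and 33.9% and 29.6% when libraries were rescaled without the largest row. Because the genes were chosen with this contrast known, nothing is read from these counts. The median log2 difference was -0.06 over the 8 tested genes and -0.07 over all tested rows, and turned to 0.06 and 0.04 under that rescaling.

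Summed per length, the receptor transcripts came to 192, 172 and 172 FPKM in WT and to 8.14, 8.72 and 8.34 FPKM in KO. Egfr made up 96.3% ± 0.4 of that sum in WT and 19.2% ± 1.9 in KO (SD, n = 3). Erbb2 made up 3.64% ± 0.36 in WT and 78.5% ± 1.2 in KO, with its own values overlapping, and Erbb3 made up 0.024% ± 0.004 and 2.31% ± 0.70. The pool of EGFR ligand transcripts (Btc, Hbegf, Areg, Ereg, Tgfa and Egf) overlapped between groups, at 20.5, 22.6 and 21.3 FPKM in WT and 18.6, 22.1 and 23.4 FPKM in KO. Its make-up was not alike: Ereg held 61.6% ± 2.4 of it in WT and 42.3% ± 4.2 in KO, and Hbegf 29.4% ± 1.3 and 40.6% ± 3.5. Btc held 0.11% ± 0.04 in WT and 6.09% ± 0.98 in KO. Ereg came first in that pool in the WT libraries and in KO replicate 3. Hbegf came first in KO replicates 1 and 2, at 7.68 against 7.32 FPKM and 9.64 against 8.93 FPKM, so in KO these neighbours in the order did not differ beyond their spread.

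**Figure D2:**
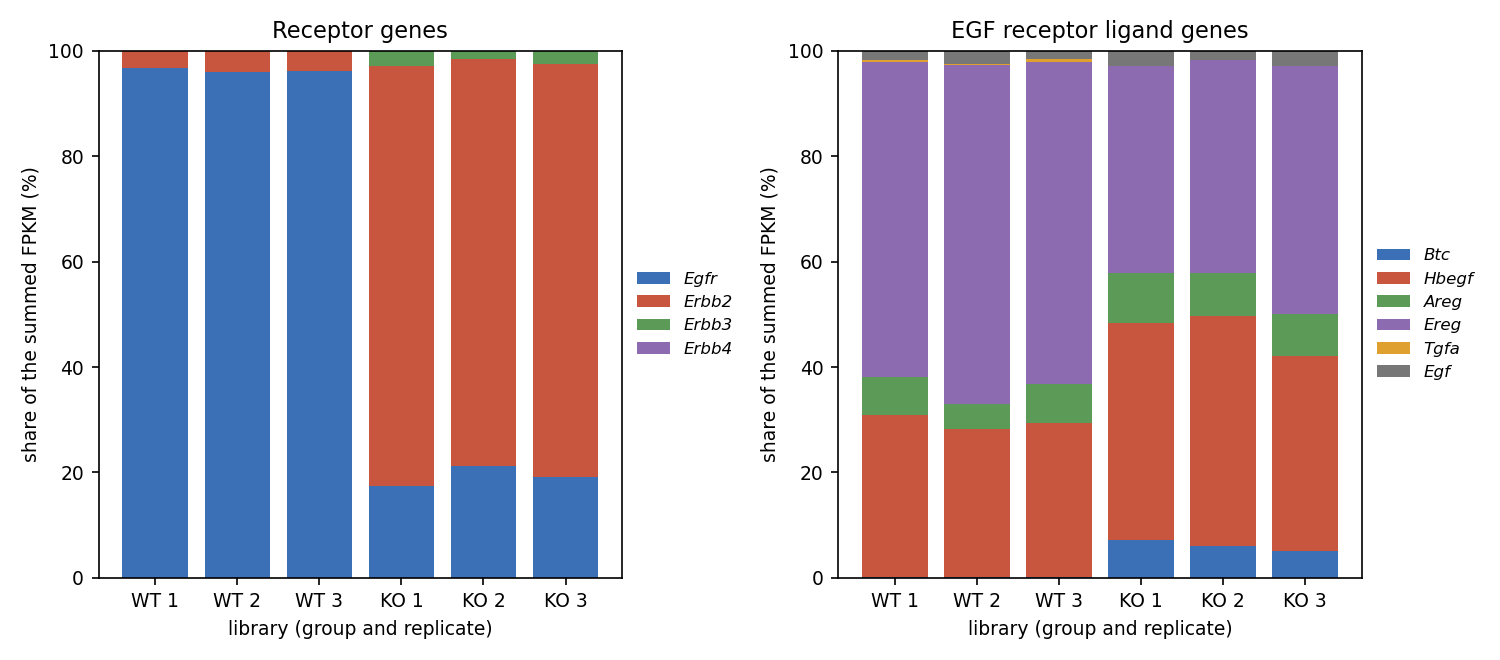
Share of the summed FPKM held by each receptor gene (left) and by each EGFR ligand gene (right) in every library, in percent. Egfr fills 96.3% of the receptor sum in WT and 19.2% in KO, while Erbb2, at nearly the same FPKM in both groups, fills 3.64% and 78.5%, and the Ereg share of the ligand sum is smaller in KO.

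Egfr lies on chromosome 11 from 16752203 to 16918158 on the plus strand (GRCm38, GENCODE M21). The rows of its neighbours within 1 Mb did not share its size of difference. Of 9 protein-coding neighbours, 2 were under the filter, 2 shared 1 row and 5 were tested, of which 3 fell and 1 rose, beside 36.7% and 28.5% of all tested rows. The row shared by Ppp3r1 and Wdr92 rose by 0.16 on the log2 scale (limma adjusted p = 0.0383). Cnrip1, 133.4 kb away, which encodes a protein that binds the cannabinoid receptor, fell from 3.19, 3.32 and 3.24 FPKM to 1.09, 0.582 and 0.956 FPKM (log2 difference -1.47, SE 0.16, limma adjusted p = 3.97e-04). Sec61g, 243.7 kb to the other side, for a subunit of the protein translocation channel, fell by 0.43 on the log2 scale (adjusted p = 4.01e-04 in limma). Fbxo48, 33.2 kb away, fell from 0.848 ± 0.052 to 0.434 ± 0.024 FPKM (limma adjusted p = 0.00631). Fbxo48 passed the filter on low values through its WT libraries alone, and it is in the count of those that fell. With a mean of at least 1 FPKM required, 3 neighbours of Egfr passed, against 4. Pno1 rose by 0.19 on the log2 scale (limma adjusted p = 0.0218), a call lost without KO replicate 1 or 3 (adjusted p of 0.0528 and 0.0636). C1d was at 26.7 ± 1.2 and 21.5 ± 5.3 FPKM (limma adjusted p = 0.121), and passed without KO replicate 3 (adjusted p = 0.0021).

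**Figure D3:**
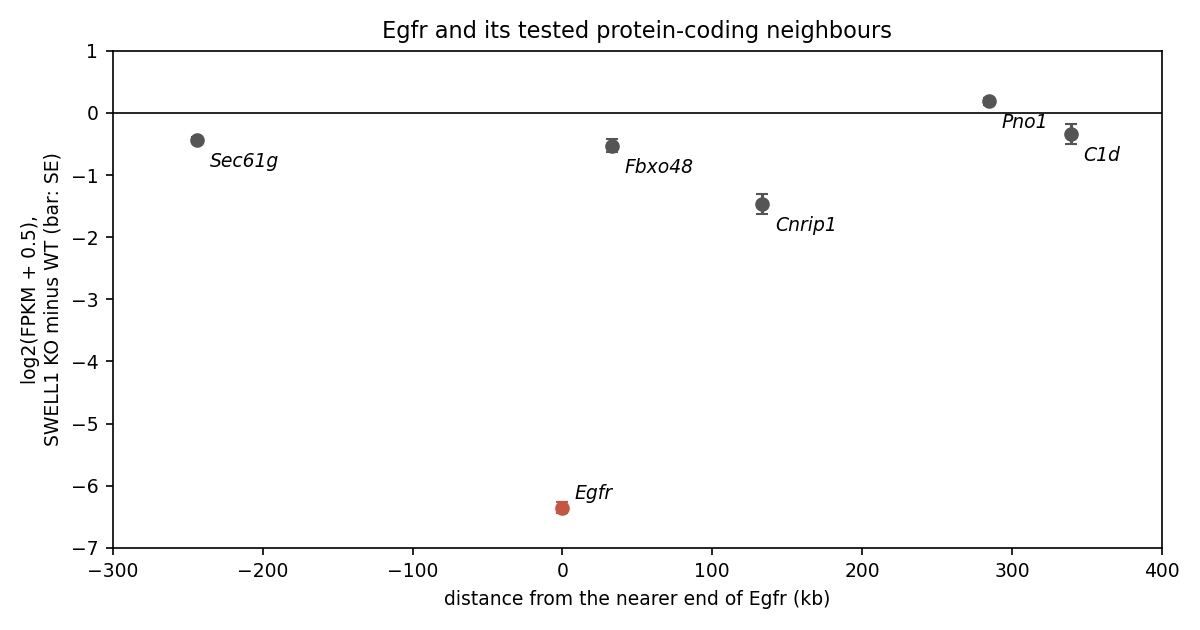
Log2 difference on log2(FPKM + 0.5), KO minus WT with its SE, of Egfr (red) and its 5 tested protein-coding neighbours (grey) against the distance from the nearer end of Egfr in kb. Egfr lies at -6.35 and its neighbours between -1.47 and 0.19.

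The ligand genes Ereg (91074622 to 91093646), Areg (91139599 to 91148432) and Btc (91357261 to 91402994) lie near each other on chromosome 5, with Btc on the minus strand. Ereg was lower in KO, Areg slightly higher and Btc far higher, so genes of 1 cluster differed in direction. Epgn, the fourth ligand gene of the cluster, was not analysed here. Of 14 tested protein-coding genes within 1 Mb of the cluster, 6 rose and 4 fell, so that 71.4% passed, near the 65.2% of all tested rows. Gm9958, counted among those that rose, passed the filter on low values through its KO libraries alone. With a mean of at least 1 FPKM required, 9 of these genes passed, against 10. The other genes lie elsewhere: Erbb3 on chromosome 10 (128567523 to 128589652), Tgfa on chromosome 6 (86195223 to 86275719), Nrg1 on chromosome 8 (31814551 to 32884029), Errfi1 on chromosome 4 (150853919 to 150868892) and Hbegf on chromosome 18.

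The rows most like Egfr were sought by the distance between log2(FPKM + 0.5) profiles over the 6 libraries, each centred on its own mean, among 9910 rows with no library at 0. The nearest were Igf2 (distance 0.80), Col12a1 (0.89), Cyr61 (0.97), Fabp4 (1.32) and Pi15 (1.34), in log2 units. Igf2, an embryonic growth factor gene, was at 450, 468 and 478 FPKM in WT, against 8.372, 7.955 and 8.005 FPKM in KO. Pi15, a gene for a secreted protease inhibitor, was at 27.0, 28.9 and 26.0 FPKM in WT, against 0.213, 0.233 and 0.199 FPKM in KO. With 2 groups such likeness mostly records the size of the step between them.

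Around the receptor, 8 lists of pathway genes held 109 symbols, of which 86 were tested (symbols without a row were not analysed here), 30 rose and 32 fell, so that 72.1% passed against 65.2% of all tested rows. Their median log2 difference was -0.05. The balance turned with the scaling: 37 rose and 27 fell under quantile normalization (median 0.07), and 36 and 25 when rescaled without the largest row (median 0.07). Of all tested rows, 28.5% rose and 36.7% fell. Genes of ligand shedding and release rose in 7 of 11 tested cases and fell in 3 (median 0.23). Adam10 and Adam17, the proteases that release Btc and most other EGFR ligands, rose 1.63-fold and 1.25-fold (limma adjusted p = 5.85e-04 and 0.00106). Adam12, a protease that can release HB-EGF, fell from 1.37 ± 0.07 to 0.22 ± 0.08 FPKM (limma adjusted p = 2.51e-04), and Adam19 fell 1.88-fold. The rhomboid protease gene Rhbdl2 was listed at 0 in all WT libraries and at 1.86, 1.94 and 1.92 FPKM in KO. A 0 in this table can be a failed estimate. Rhbdl2 passed the filter on low values through its KO libraries alone, and Adam12 through its WT libraries alone. Both are in the counts of this list. With a mean of at least 1 FPKM required, 8 genes of the list passed, against 10. Nrd1, a protease that boosts shedding, was at 29.5 ± 2.3 and 31.7 ± 3.3 FPKM (limma adjusted p = 0.384).

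Adaptors and effectors that dock on the receptor fell in 7 of 16 tested cases and rose in 3 (median -0.05). Over all tested rows 36.7% fell and 28.5% rose. When rescaled without the largest row, 6 adaptors fell and 5 rose (median 0.06), beside 29.6% and 33.9% of all tested rows. Plcg1, a phospholipase recruited by the active receptor, fell from 55.2, 55.6 and 54.6 FPKM to 26.7, 31.9 and 25.9 FPKM (limma adjusted p = 1.59e-04). The guanine nucleotide exchange factor gene Vav3 fell 2.49-fold and the transcription factor gene Stat3 1.71-fold. Grb2, the adaptor that brings SOS to the receptor, was at 34.3 ± 1.9 and 33.1 ± 1.5 FPKM (limma adjusted p = 0.48). In the Ras to ERK list 7 of 15 fell and 4 rose (median -0.15), but 5 fell and 6 rose under quantile normalization. The MEK genes moved in opposite directions: Map2k1 fell from 59.1 ± 1.1 to 24.5 ± 1.5 FPKM, and Map2k2 rose from 26.0 ± 2.0 to 55.0 ± 0.9 FPKM (limma adjusted p = 1.32e-05 and 3.53e-05). Their summed levels were not tested. Rps6ka1, an ERK-activated kinase gene, fell 1.95-fold, and Mapk3, which encodes ERK1, was at 152 ± 18.9 and 126 ± 14.8 FPKM (limma adjusted p = 0.0989). Mapk3 passed without WT replicate 3 (adjusted p = 0.0358).

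Inhibitors of the receptor other than Errfi1 fell in 5 of 11 tested cases and rose in 4 (median -0.20). Over all tested rows 36.7% fell and 28.5% rose. Socs3, a cytokine-induced inhibitor gene, fell from 148 ± 5.7 to 26.5 ± 1.3 FPKM, and the phosphatase gene Ptpn1 from 46.7 ± 3.1 to 11.1 ± 0.7 FPKM (limma adjusted p = 1.86e-06 and 7.34e-06). The membrane inhibitor gene Lrig1 rose from 10.6 ± 0.9 to 25.3 ± 0.4 FPKM (limma adjusted p = 2.85e-05), and its relatives Lrig2 and Lrig3 rose 1.22-fold and 1.58-fold. Socs5 was at 26.3 ± 1.8 and 24.5 ± 0.5 FPKM (limma adjusted p = 0.176). Genes of receptor endocytosis and degradation fell in 5 of 14 tested cases and rose in 1 (median -0.15), but 4 and 4 under quantile normalization. The ubiquitin ligase genes Cblb and Itch fell 2.84-fold and 1.93-fold, and Rab5a, of early endosomes, fell 1.77-fold (limma adjusted p of 0.00237 or less in each). Rab7, of late endosomes, was at 124 ± 1.8 and 120 ± 2.2 FPKM (limma adjusted p = 0.213).

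Genes known to respond to ERK rose in 10 of 16 tested cases and fell in 5, beside 28.5% and 36.7% of all tested rows. Their median log2 difference was 0.51, against -0.07 over all tested rows. The ERK phosphatase gene Dusp4 rose from 2.06, 2.54 and 2.72 FPKM to 16.0, 17.1 and 19.4 FPKM (limma adjusted p = 1.45e-05). The transcription factor genes Etv4, Etv5 and Etv1 rose 2.1-fold, 1.91-fold and 1.76-fold, and Dusp6, an ERK phosphatase gene, 1.38-fold. Ier3 fell from 35.6 ± 2.0 to 19.1 ± 1.2 FPKM (limma adjusted p = 9.35e-05), and Fosl1, Spry1, Spry2 and Egr1 were the other 4 that fell. Dusp5 was at 2.80 ± 0.21 and 2.67 ± 0.45 FPKM (limma adjusted p = 0.669). Of the receptor's chaperones, Hsp90ab1 rose 1.41-fold (limma adjusted p = 2.34e-05), while Hsp90aa1 was at 156 ± 6.4 and 150 ± 7.4 FPKM (limma adjusted p = 0.398). Adam10, Adam17, Lrig2, Lrig3, Etv5, Etv1, Dusp6, Fosl1, Spry1, Spry2 and Egr1 were named after their values were seen.

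**Figure D4:**
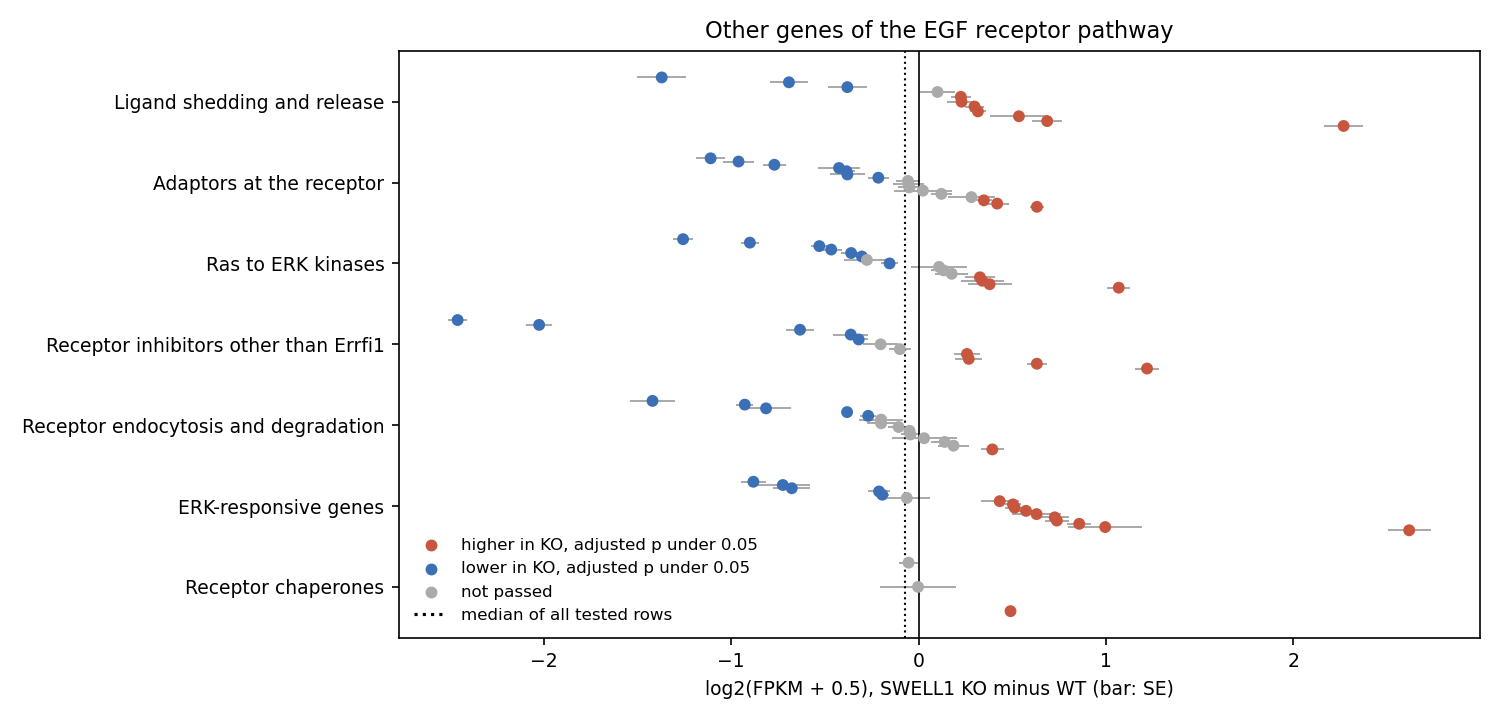
Log2 difference on log2(FPKM + 0.5), KO minus WT with its SE, of each tested gene in 7 pathway lists; red and blue mark genes higher and lower in KO at an adjusted p under 0.05, grey those that did not pass, and the dotted line the median of all tested rows at -0.07. ERK-responsive genes lie mostly to the right (10 higher, 5 lower), and receptor inhibitors spread to both sides (4 higher, 5 lower). Of all tested rows, 28.5% are higher and 36.7% lower.

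Further ligands of the family were low or listed at 0. Egf was at 0.349, 0.564 and 0.328 FPKM in WT and 0.544, 0.385 and 0.664 FPKM in KO, with overlap and under the filter. Nrg2, Nrg3 and Nrg4 were listed at 0 in all 6 libraries.

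Markers of epithelial and glial cells, in which these genes are prominent, and of endothelial cells were low in both groups. The summed FPKM of 9 epithelial markers was 0.063 to 0.254 in WT and 1.37 to 1.57 in KO. In KO nearly all of it was Krt8, with Epcam and Esrp1 listed at 0 throughout. Krt8 was listed at 0 in all WT libraries, passed the filter through its KO libraries alone and was higher in KO (limma adjusted p = 7.31e-05). Of 5 Schwann and glial markers, 4 were measured, and their sum was 0.022 to 0.123 in WT and 0.265 to 0.719 in KO, moving with Erbb3. Sox10, the defining factor of those cells, was at 0 to 0.022 FPKM in every library. The part of these markers in the Erbb3 difference was not tested. Of 6 macrophage markers, 5 were measured, at about 20 to 23.5 in WT and 20.1 to 30.6 in KO, nearly all Cd14, with Csf1r listed at 0. Cd14 did not pass (limma adjusted p = 0.197). Lyz2, which passed the filter through its WT libraries alone, fell from 1.51 ± 0.19 to 0.17 ± 0.13 FPKM (limma adjusted p = 4.58e-04). The 4 endothelial markers summed to 0.456 to 0.659 in WT and 2.05 to 2.45 in KO. In KO most of that sum was Vwf, which rose from 0.42 ± 0.09 to 1.71 ± 0.02 FPKM (limma adjusted p = 1.9e-04). Vwf also passed the filter through its KO libraries alone. The 4 measured smooth muscle markers summed to 85.9 to 102 in WT and to 2.03 to 3.23 in KO. Fibroblast and preadipocyte markers summed to 6740 to 7580 FPKM in WT and 6160 to 6220 in KO. All 8 tested passed, beside 65.2% of all tested rows (28.5% higher and 36.7% lower), and they split. Thy1 and Dlk1 fell 2.01-fold and 1.72-fold and Pdgfra, Col1a1 and Col1a2 fell 1.51-fold to 1.59-fold, while Pdgfrb, Col3a1 and Vim rose 1.42-fold, 1.21-fold and 1.28-fold (median log2 difference -0.60). Of the 8 adipocyte markers, 3 were below the filter, with Lep listed at 0 in all libraries. Of the 5 tested, 4 fell, beside 36.7% of all tested rows (median log2 difference -1.85). Fabp4 read 188, 156 and 133 FPKM in WT against 2.45, 3.48 and 4.37 FPKM in KO, 46.3-fold lower. Pparg and Plin1, both low in WT (means of 1.83 and 1.01 FPKM), were 14.4-fold and 10.0-fold lower. Adipoq stood at 1.87, 1.55 and 1.26 FPKM in WT and 0.044, 0 and 0 in KO. Adipoq, Pparg and Plin1 passed the filter on low values through their WT libraries alone. Lpl, which did not pass, was at 152 ± 11.7 and 123 ± 22.2 FPKM (limma adjusted p = 0.0927), and made up nearly all of the adipocyte sum in KO (106 to 152 FPKM, against 276 to 358 in WT). The smooth muscle sum and these 4 adipocyte markers were lower in KO together with Egfr, and their part in that difference was not tested.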

How the data were processed

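RNA was sequenced from 3 WT and 3 SWELL1 KO libraries of 3T3-F442A cells. Per the submitters' processing notes, the authors used TopHat, Cufflinks 2.02 and the build GRCm38. The deposited table gives 1 value per row and library, taken as FPKM by inference, since no header names the unit; the sources used here give no settings, annotation release or strand. Depth, estimated from the worth of 1 fragment in 1183 single-transcript genes (2500 bases or longer), came to 18.1 to 21.9 M fragments for WT and, for KO, to 19.4 to 27.4 M. Fragments of a gene were estimated from its longest GENCODE M21 transcript. Intervals cover counting error only.

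A single row, AC166252.2, took 16.7% to 23.7% of the FPKM sum in KO libraries and at most 2.1% in WT. Within groups, 24.6% to 30.3% of rows at 10 FPKM or more differed by over 10%, so no library looked deposited more than once.

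Limma 3.58.1 in R 4.3.3 was run on log2(FPKM + 0.5) of every row whose mean over 6 libraries reached 0.5 FPKM (mean-variance trend, two-sided, Benjamini-Hochberg over all tested rows, threshold 0.05). The steps were also run on simulated data with independent noise and few changed rows. That setting differs from these data, where 65.2% of tested rows passed, so it does not bear on the calls here. Python 3.11.15, numpy 2.4.6, pandas 2.3.3, scipy 1.17.1 and matplotlib 3.10.9 served reading, intervals and drawing. The genes and lists were chosen with earlier results of these data known. Named genes were the family, its tested neighbours, the 5 rows nearest Egfr and, in each list, the 3 largest changes past the threshold and the most abundant gene not past it. Alternatives were other pseudocounts, filters, scalings, a robust variance model, a replicate block and leaving out each library.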

Additional observations from a re-analysis of the deposited data

How the results depend on the processing

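Leaving out 1 library at a time gave 6303 to 6512 rows past the threshold, against 6860 with all 6, and 55 to 60 pathway genes, against 62. The other settings gave 6519 to 7595 rows and 57 to 64 pathway genes. The number of family genes whose groups did not overlap was 7 with all libraries, 7 to 9 without 1 of them and 7 to 8 otherwise. Leaving out a library can only keep or raise that number, so its range without 1 library is no measure of stability. The share over all rows was not computed under these settings, and nothing is read from these numbers. Among the neighbours of Egfr and of the ligand cluster, 14 of 19 passed, 13 to 14 without 1 library and 12 to 16 otherwise. Receptor chaperones past the threshold numbered 1, and 2 under quantile normalization. The median of all tested rows shifted by 0.11 (log2) when libraries were rescaled without the largest row, and by under 0.1 with the other scalings. Under that rescaling, Erbb2 was at 0.14, Hbegf at 0.54 and Errfi1 at -0.02 on the log2 scale, to be read against the shift.

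Some genes that did not pass changed sign with the scaling; the cause was not tested. Log2 differences under quantile normalization were 0.104 for Grb2, 0.034 for Socs5, 0.165 for Rab7 (limma adjusted p = 0.00292) and 0.155 for Hsp90aa1 (limma adjusted p = 0.0498). Under median-ratio scaling they were 0.016 for Grb2, 0.018 for Rab7 and 0.013 for Hsp90aa1. Rescaled without the largest row, they were 0.070 for Grb2, 0.019 for Socs5, 0.072 for Rab7, 0.039 for Dusp5 and 0.068 for Hsp90aa1. Leaving out 1 library moved Dusp5 between -0.175 and 0.018.

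Same-numbered WT and KO libraries share only a number. Their deviations from the group means correlated at 0.00342, 0.0116 and -0.0932 for replicates 1, 2 and 3 (10515 rows). No library correlated best with the library of its own number. With the replicate block 6534 rows passed, and Mapk3 passed at -0.28 (limma adjusted p = 0.00458). Depth limits Erbb3, Tgfa and, in WT, Btc, which rest on about 27 or fewer fragments in a library.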
